A study of Mus musculus with 6 samples.

Results

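A set of 10 genes of the mitochondrial permeability and cell death machinery were followed in the duodenal epithelium of mice with and without *Esrra*, and all 10 are among the 22611 genes with a deposited expression value. They are *Ppif*, which encodes cyclophilin D, the voltage-dependent anion channels *Vdac1*, *Vdac2* and *Vdac3*, cytochrome c (*Cycs*), apoptosis-inducing factor (*Aifm1*), the pore formers *Bax* and *Bak1*, and their restrainers *Bcl2l1* and *Mcl1*. *Ppif* was chosen by its FPKM in these same 6 libraries, which was lower in the knockout, so its own values are given as a description with no test. The other 9 genes were taken for their function around it. They and the gene lists used below were chosen with earlier results of these data known. Counts of calls among them are set beside the share over all genes as a description, with no test. All 10 passed a filter of a mean above 1 FPKM that left 10596 genes for testing, where FPKM counts the fragments assigned to a gene after scaling for transcript length and for the size of the library.

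The samples were whole duodenal epithelium, released from the underlying tissue with 3 mM EDTA over 35 min, from 3 WT mice and 3 Esrra-/- mice (labelled ESRRAKO), with 1 RNA-seq library for each mouse. The controls were littermates of the knockouts, and both groups ate a high-fat diet for several weeks before collection. The deletion is germline, so *Esrra* was missing in every tissue and not in the epithelium alone. The age and strain of these mice are not given in the sources used here. The colony also carried a floxed *Esrra* allele and the Villin-CreERT2 transgene, which is driven by a promoter of the intestinal epithelium, and whether the 6 sequenced mice carried either is not stated. Both sexes were used.

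ESRRA is an orphan nuclear receptor that activates genes of mitochondrial energy metabolism. Cyclophilin D is a peptidyl-prolyl isomerase of the mitochondrial matrix that lowers the calcium load at which the inner membrane's permeability transition pore opens, an event that swells the organelle and leads to necrotic death. The VDAC porins let metabolites cross the outer membrane, and in the apoptotic route BAX and BAK1 perforate that membrane and release cytochrome c, which then builds the apoptosome with APAF1. BCL-XL, the product of *Bcl2l1*, and MCL1 hold BAX and BAK1 in check. In healthy cells cytochrome c carries electrons from complex III to complex IV, and enterocytes, which absorb fat and are shed at the villus tip after a few days, depend on that chain for energy.

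*Esrra* (chromosome 19) itself read 49.4, 73.5 and 104 FPKM in WT replicates 1, 2 and 3, and 10.4, 9.42 and 8.72 FPKM in the Esrra-/- libraries, on the log2 scale a difference of −2.92 (limma, standard error 0.26, adjusted p = 0.0215), so the libraries match their labels. The third replicate of each genotype stood apart from the other two. Y-linked transcripts summed to between 27.3 and 46.7 FPKM in replicates 1 and 2 of both groups and to 0.0487 and 0.222 FPKM in WT replicate 3 and Esrra-/- replicate 3, and these 2 libraries also had the highest FPKM sums of their groups (999902 and 901171, against 707094 to 818406 in the other 4). All 10 genes were highest in replicate 3 among the WT libraries, and 9 of the 10, all but *Ppif*, were highest in replicate 3 among the Esrra-/- libraries. Values for the 4 libraries with Y-linked transcripts and for the 2 without are therefore given where they matter. The epithelial identity held in every library: the 10 enterocyte markers summed to between 39709.8 and 67964 FPKM, endothelial markers stayed under 1 FPKM throughout, and 6 of 8 mesenchymal markers did as well. Markers of crypts summed to 203 to 323 FPKM in WT and 100 to 239 FPKM in Esrra-/- libraries, with 1 of 7 called lower, and those of Paneth cells to 7057 to 15063 and 1467 to 6453 FPKM, with 2 of 4 called lower (3.28% of all genes tested were). The part of these shifts in the results below was not tested, and in bulk epithelium fewer cells of a type cannot be told apart from less RNA per cell.

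The gene that led to the set, *Ppif* (mm9, chr14:26513640-26519954, plus strand), read 31.1, 31.03 and 36.0 FPKM in the WT libraries and 16.4, 16.8 and 15.2 FPKM in the Esrra-/- libraries. Every knockout library was below every WT library, and the knockout values lay close together, with a mean of 16.1 ± 0.805 (SD, n = 3) against 32.7 ± 2.83 (SD, n = 3) in WT. The knockout mean was 49.2% of the WT mean, and the log2 fold change, on the scale of log2(FPKM + 0.1) used throughout, was −1.02 with a standard error of 0.12. It was −0.90 in the 4 libraries with Y-linked transcripts and −1.24 in the 2 without. In WT *Ppif* ranked 8th of the 10 genes, level with *Aifm1* above it and *Bcl2l1* below it, whose ranges overlapped its own. In the knockout it was the lowest of the 10, and its range did not reach that of the next gene, *Bax*.

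**Figure D1:**
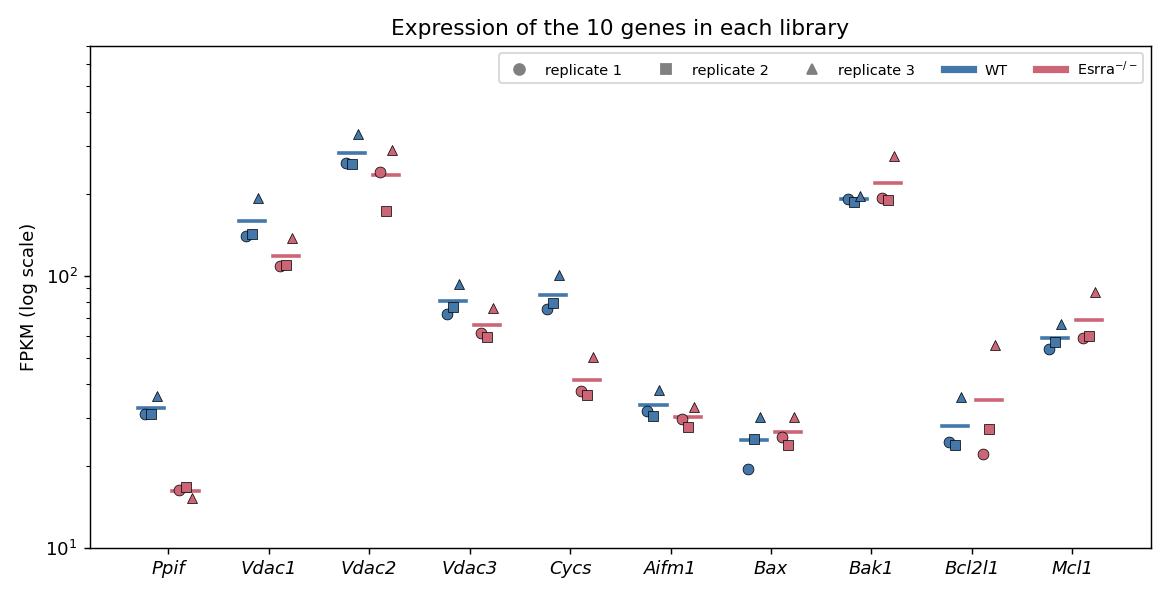
FPKM on a log scale of each of the 10 genes in the 3 WT (blue) and 3 Esrra-/- (red) libraries, with a symbol for each replicate and a bar at the group mean. The groups lie apart for *Ppif*, *Vdac1* and *Cycs* and overlap for the other 7 genes, and replicate 3 (triangles) is the highest of its group except for *Ppif* in the knockout.

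Read against the rest of the transcriptome, the fall of *Cycs* was the single one among the 9 other genes that passed the study's thresholds, an unadjusted p under 0.05 with a log2 fold change beyond 0.58. Over all genes tested, 3.28% were called lower (348 genes) and 1.35% higher (143 genes) by the same rule, and no gene of the 9 was called higher. Non-overlapping groups with the knockout lower were seen for 2 of the 9, *Cycs* and *Vdac1*, where 9.14% of all genes showed that pattern, and none of the 9 had non-overlapping groups with the knockout higher (8.45% of all genes). The median log2 fold change of the 9 was −0.14 (−0.21 to −0.048 with 1 library left out, the latter without WT replicate 3), and that of all genes tested was 0.03. After Benjamini-Hochberg adjustment over all genes none of the 9 had an adjusted p under 0.05 in limma, while 1, *Cycs*, had an unadjusted p under 0.05 (6.49% of all genes did so on the lower side and 4.3% on the higher side), and 4 genes of the whole table (0.0378%) passed that adjustment in the fit of all 6 libraries with no covariate, a number that ran from 0 to 52 over the other settings.

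**Figure D2:**
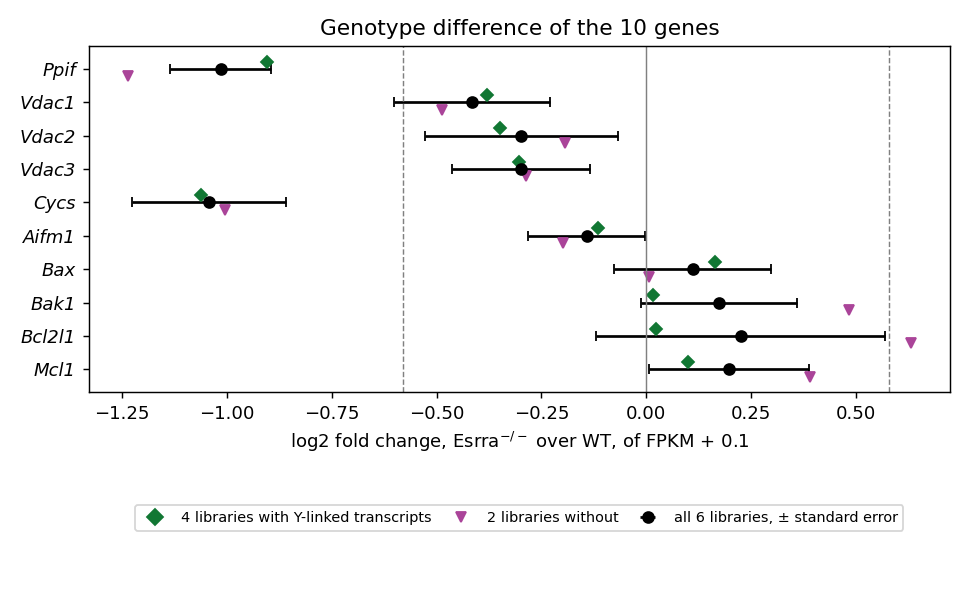
Log2 fold change, Esrra-/- over WT, of the 10 genes in all 6 libraries (black, with the standard error), in the 4 libraries with Y-linked transcripts (green) and in the 2 without (purple). Dashed lines mark the study's fold threshold of 0.58, which *Ppif* and *Cycs* pass in each set of libraries and *Bcl2l1* (0.63) passes only in the 2 libraries without Y-linked transcripts.

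*Cycs* (chr6:50512562-50516537, minus strand) encodes the somatic form of cytochrome c. It read 75.7, 79.3 and 101 FPKM in WT and 37.8, 36.4 and 50.2 FPKM in Esrra-/- libraries, so that the highest knockout library stayed well below the lowest WT library. The knockout mean was 48.6% of the WT mean, and the log2 fold change stood at −1.04 (standard error 0.18, unadjusted p = 6.3e-04, limma adjusted p = 0.165). The change was of like size in the 4 libraries with Y-linked transcripts (−1.06) and in the 2 without (−1.01). Over 15 alternative settings it ran from −1.19 to −0.92 and its limma adjusted p from 0.0336 to 0.586, under 0.05 with quantile normalization and with the presence of Y-linked transcripts as a covariate. *Cycs* was thus lower by about as much as *Ppif* was.

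The level of *Cycs* is less certain than its direction, because processed copies of the cytochrome c message lie all over the mouse genome. Of the 3093 different stretches of 31 bases in the *Cycs* transcript, 41.3% also occur elsewhere in the mm9 genome, and the places that share the most of them hold genes of the deposited table. *Gm10053* (chr19:24950227-24950702) and *Gm10108* (chr5:13121307-13121782) each consist of 1 exon of 476 bases, and the places they sit in share 1127 and 725 of those stretches with *Cycs*. *Gm10053* read 343, 384 and 446 FPKM in WT and 155, 118 and 218 FPKM in the knockout (log2 fold change −1.29, limma adjusted p = 0.195). *Gm10108* read 512, 573 and 745 FPKM in WT and 282, 271 and 349 FPKM in the knockout (−1.01, limma adjusted p = 0.223). Both copies carried higher FPKM than *Cycs* in every library, and both were called lower. Another such copy, *Gm10121*, was listed at 0 in every library. These copies were looked at after their values had been seen. Reads of *Cycs* and of its copies cannot be told apart where the sequences are identical, so the 3 were also summed. FPKM is scaled by length, so a fragment counts for more in the short copies than in the longer *Cycs* transcript. The sum thus depends on how fragments were shared out among the 3, and it is given as a description. It was 931, 1036 and 1291 FPKM in WT and 475, 426 and 616 FPKM in the knockout, 46.6% of the WT mean, and the share of *Cycs* in it stayed between 7.65% and 8.54% in all 6 libraries.

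**Figure D3:**
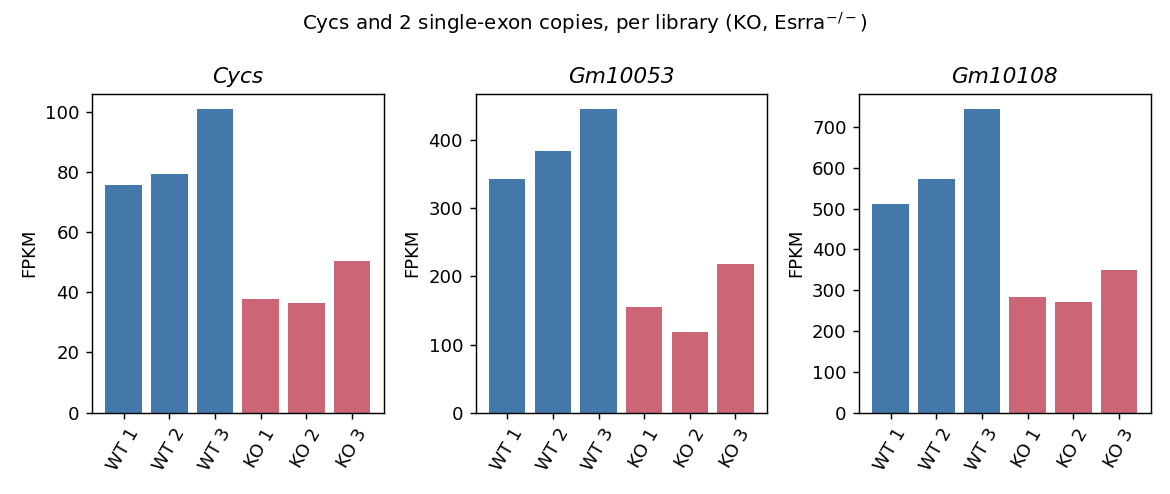
FPKM of *Cycs* and of its single-exon copies *Gm10053* and *Gm10108* in each WT (blue) and Esrra-/- (red, KO) library, each gene on its own axis starting at 0. The 3 knockout bars are below the 3 WT bars for each gene, and replicate 3 is the highest of each genotype.

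Cytochrome c works between complexes III and IV, and 12 genes of these complexes fell with it. Of 20 nuclear genes for subunits of the pair of complexes and for the haem lyase of cytochrome c, all 20 had a negative log2 fold change, those 12 were called lower (3.28% of all genes were) and the median was −0.59. Those called ran from *Cox7a2* (−0.94) and *Cox5a* (−0.92), subunits of complex IV, and *Uqcr10* (−0.91) and *Uqcrfs1* (−0.87), subunits of complex III, to *Cox6b1* (−0.58). The call of *Cox6b1* was lost in 8 of 15 alternative settings. The number called was 6 without WT replicate 3, 5 without Esrra-/- replicate 1, 7 without Esrra-/- replicate 2, 16 without Esrra-/- replicate 3 and 8 with quantile normalization. *Cyc1*, which encodes cytochrome c1, the subunit of complex III that hands electrons to cytochrome c, had a log2 fold change of −0.58 that fell just short of the fold threshold (limma adjusted p = 0.431). The log2 ratio of *Cycs* to *Cyc1* within a library, which does not depend on how a library was scaled, was −2.07, −1.94 and −2.12 in WT and −2.51, −2.44 and −2.57 in the knockout. The groups did not overlap, and the mean difference was −0.47 (exact permutation test, 2-sided, p = 0.1, the smallest that 3 against 3 can give; 0.5 after adjustment over the 5 ratios tested).

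None of the 3 VDAC channels was called. *Vdac1* (chr11:52174362-52202899, plus strand), in most tissues the main isoform and a docking site for hexokinase, came nearest. It read 141, 142 and 192 FPKM in WT and 108, 109 and 137 FPKM in Esrra-/- libraries, and the highest knockout value lay below the lowest WT value by a small margin. Its log2 fold change was −0.42 (standard error 0.19, unadjusted p = 0.0583, limma adjusted p = 0.480), and over 15 alternative settings it ran from −0.53 to −0.27, short of the fold threshold in each. Its unadjusted p from limma was 0.00274 with the presence of Y-linked transcripts as a covariate, 0.00423 with the replicate block, 0.00191 with quantile normalization, 0.0161 in the libraries with Y-linked transcripts and 0.0304 without Esrra-/- replicate 3.

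*Vdac2* (chr14:22650491-22665101, plus strand), the isoform known to hold BAK1 at the outer membrane, had the highest listed mean of the 10 genes in both genotypes, although *Bak1* stood above it in Esrra-/- replicate 2. It read 260, 259 and 333 FPKM in WT and 240, 172 and 291 FPKM in the knockout, and the groups overlapped through Esrra-/- replicate 3 (log2 fold change −0.30, standard error 0.23, limma adjusted p = 0.673). The value was −0.092 without Esrra-/- replicate 2 and −0.47 without Esrra-/- replicate 3. *Vdac3* (chr8:23687573-23704230, minus strand), the least abundant channel, read 72.6, 76.5 and 93.1 FPKM in WT and 61.4, 59.3 and 76.4 FPKM in the knockout (−0.30, standard error 0.16, limma adjusted p = 0.555), where only Esrra-/- replicate 3 reached into the WT range, and −0.19 without WT replicate 3. Its unadjusted p from limma, 0.111, was 0.0121 with the Y-linked covariate, 0.0158 with the replicate block and 0.00775 with quantile normalization. It was 0.0374 in the libraries with Y-linked transcripts and 0.0416 without Esrra-/- replicate 3. With each other library left out it ran from 0.102 to 0.285. The limma adjusted p of *Vdac3* ran from 0.153 to 0.852 over the settings. All 3 channels had negative log2 fold changes, which stayed short of the fold threshold in every setting. Of the 31-base stretches of these transcripts, 27.95% for *Vdac1*, 18.9% for *Vdac2* and 87.7% for *Vdac3* also occur elsewhere in the genome, for *Vdac3* mostly in the pseudogene *Vdac3-ps1*, so that the level of *Vdac3* is the least certain.

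No difference in the make-up of the channel pool exceeded the spread between libraries. *Vdac1* took 30.2% ± 0.781 of the summed VDAC FPKM in WT and 28.6% ± 3.02 in the knockout (SD, n = 3 each; exact permutation test, 2-sided, p = 0.4), a difference of −1.67 percentage points that ran from −3.40 to −0.62 with 1 library left out. *Vdac2* took 54.3% ± 0.571 and 55.6% ± 4.37 (exact permutation test, p = 0.6). The spread of both shares was wider in the knockout, where *Vdac2* took 50.6% in replicate 2 and 58.6% in replicate 1. The sum of the 3 channels was 473, 477 and 618 FPKM in WT and 410, 341 and 504 FPKM in the knockout, so the groups overlapped, with the knockout mean at 80.0% of the WT mean. Against this sum *Ppif* stood at 6.58, 6.50 and 5.82 FPKM per 100 FPKM of VDAC in WT and at 3.99, 4.92 and 3.02 in the knockout. This ratio carries the fall for which *Ppif* was chosen and is given as a description.

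**Figure D4:**
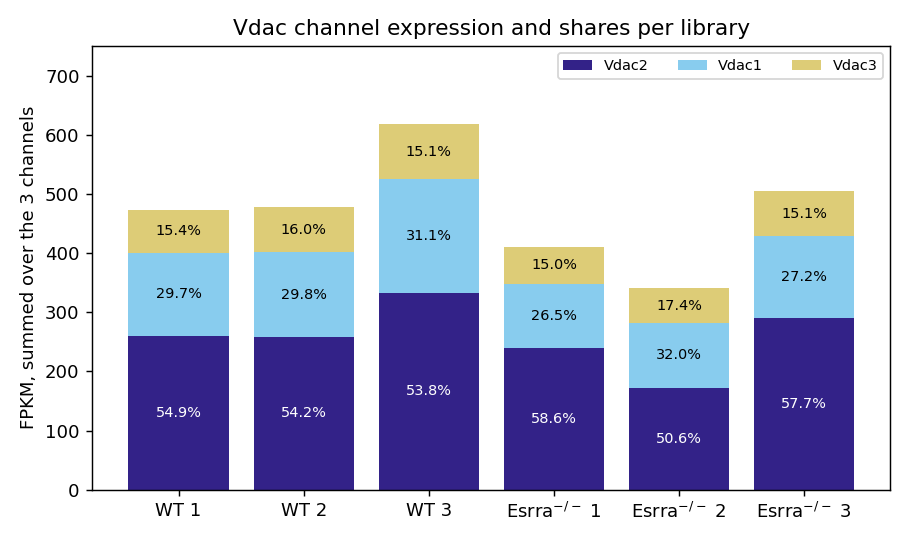
Summed FPKM of *Vdac1*, *Vdac2* and *Vdac3* in each library as stacked bars from 0, with the share of each channel in its library printed in the bar. *Vdac2* makes up 50.6% to 58.6% of the pool in all 6 libraries, and the sums of the genotypes overlap (341 to 504 FPKM in Esrra-/- and 473 to 618 FPKM in WT).

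The pore formers of the apoptotic route did not pass the test in either direction. *Bax* (chr7:52717065-52722268, minus strand), which moves from the cytosol to mitochondria when activated, read 19.4, 25.1 and 30.2 FPKM in WT and 25.6, 23.9 and 30.3 FPKM in the knockout, with wholly overlapping groups (log2 fold change 0.11, standard error 0.19, limma adjusted p = 0.855). *Bak1* (chr17:27156755-27165954, minus strand), which resides in the outer membrane, carried 6.52 to 9.84 times the FPKM of *Bax* in the 6 libraries and ranked next to the VDAC channels. It read 191, 187 and 197 FPKM in WT and 193, 189 and 275 FPKM in the knockout (0.17, standard error 0.19, limma adjusted p = 0.762). A single library, Esrra-/- replicate 3, set the knockout mean of *Bak1* above that of WT, and without it the log2 fold change was −0.0021.

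The restrainers showed the same picture. *Bcl2l1* (chr2:152593052-152657464, minus strand) read 24.4, 23.9 and 35.7 FPKM in WT and 22.02, 27.3 and 55.4 FPKM in the knockout, with replicate 3 far above the others in both groups. Its log2 fold change was 0.23 with the widest error of the 10 genes (standard error 0.34, limma adjusted p = 0.839). It was 0.02 in the libraries with Y-linked transcripts, 0.63 in the pair without, and −0.17 without Esrra-/- replicate 3. *Mcl1* (chr3:95462643-95467099, plus strand), a short-lived protein that cells renew continuously, read 53.9, 57.0 and 66.6 FPKM in WT and 59.0, 59.8 and 87.3 FPKM in the knockout (0.20, standard error 0.19, limma adjusted p = 0.739), and without Esrra-/- replicate 3 the value was 0.012. Ratios of a pore former to a restrainer within a library did not separate the genotypes. The log2 ratio of *Bax* to *Bcl2l1* was −0.17 ± 0.21 in WT and −0.28 ± 0.55 in the knockout (SD, n = 3 each; exact permutation test, 2-sided, p = 0.9), and that of *Bak1* to *Mcl1* was 1.70 ± 0.13 and 1.68 ± 0.03 (exact permutation test, p = 0.7).

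*Aifm1* (chrX:45828121-45866740, minus strand) encodes a flavoprotein of the intermembrane space that supports respiratory complex assembly and can enter the nucleus in dying cells. It read 31.8, 30.5 and 37.9 FPKM in WT and 29.8, 27.8 and 33.0 FPKM in the knockout (log2 fold change −0.14, standard error 0.14, limma adjusted p = 0.739), and the groups overlapped. The value was −0.048 without WT replicate 3 and −0.21 without Esrra-/- replicate 3. Its knockout mean was 90.4% of the WT mean, against 48.6% for *Cycs*, which shares its compartment, and this contrast was not itself tested.

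The listed levels of the 10 genes, which FPKM scales for transcript length, had the same leading 3 genes in both genotypes. The places of *Cycs* and *Vdac3* in the order are uncertain, because 41.3% and 87.7% of their 31-base stretches occur elsewhere in the genome. To a lesser degree this holds for *Vdac1* (27.95%) and *Vdac2* (18.9%). In WT the order of mean FPKM was *Vdac2* (284), *Bak1* (192), *Vdac1* (158), *Cycs* (85.3), *Vdac3* (80.7), *Mcl1* (59.2), *Aifm1* (33.4), *Ppif* (32.7), *Bcl2l1* (28) and *Bax* (24.9). Neighbours in this order overlapped for *Bak1* and *Vdac1*, for *Cycs* and *Vdac3*, and along the run from *Aifm1* to *Bax*. In the knockout *Vdac2* (234), *Bak1* (219) and *Vdac1* (118) again led, *Cycs* (41.5) stood 6th, below *Mcl1* (68.7) and *Vdac3* (65.7), and *Ppif* (16.1) came last. There *Vdac2* and *Bak1* overlapped, as did *Mcl1* and *Vdac3* and the neighbours from *Cycs* through *Bcl2l1* (34.9) and *Aifm1* (30.2) to *Bax* (26.6).

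Of 15 tested genes of the enzyme family of *Ppif* other than *Ppif* itself, none was called in either direction, which is near the share over all genes (3.28% lower and 1.35% higher). Their median log2 fold change was −0.12 (−0.062 in the libraries with Y-linked transcripts), and 1 had an unadjusted p under 0.05 (*Ppil1*, a spliceosomal cyclophilin, −0.41, limma adjusted p = 0.444). The groups did not overlap for 1 of the 15 on each side, where 9.14% of all genes did so on the lower and 8.45% on the higher side. These were *Ppie*, a nuclear cyclophilin, with 9.11, 9.34 and 9.93 FPKM in WT and 7.87, 8.58 and 6.16 FPKM in the knockout (−0.34, limma adjusted p = 0.477), and *Ppil2* on the higher side (0.26, limma adjusted p = 0.508). Without Esrra-/- replicate 3 they stood at −0.20 and 0.17. *Ppib*, the cyclophilin of the endoplasmic reticulum, had the highest listed mean FPKM of the 15, with 156 FPKM in WT and 143 FPKM in the knockout. Its log2 fold change was −0.14 (limma adjusted p = 0.800) and ran from −0.29 to −0.058 with 1 library left out. The cytosolic cyclophilin A gene *Ppia* was listed at only 1.93 to 5.09 FPKM, and 62.5% of its 31-base stretches occur elsewhere in the genome. Its single-exon copy *Gm10123* was looked at after its values had been seen. That copy read 894, 1003 and 1168 FPKM in WT and 663, 799 and 831 FPKM in the knockout. Its groups did not overlap, and it was not called (log2 fold change −0.42, limma adjusted p = 0.515). The value of *Ppia* therefore says little about cyclophilin A.

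Among 13 tested genes other than *Ppif* linked to the permeability transition and to inner membrane transport, 2 were called lower and none higher (3.28% and 1.35% of all genes), with a median of −0.057 that ran from −0.16 to 0.049 with 1 library left out. They were *Tspo*, an outer membrane protein that binds cholesterol (22.1, 28.4 and 32.8 FPKM in WT and 17.6, 14.7 and 21.5 FPKM in the knockout, a log2 fold change of −0.62, limma adjusted p = 0.365), and *Slc25a4*, an adenine nucleotide carrier of the inner membrane that is scarce in this tissue (−0.75, limma adjusted p = 0.422, 1.94 FPKM in WT and 1.13 FPKM in the knockout). Neither call was firm: without WT replicate 3 *Tspo* stood at −0.49 and *Slc25a4* at −0.65 and both missed the thresholds, as *Tspo* did without Esrra-/- replicate 2 (−0.49) and *Slc25a4* did without WT replicate 2, Esrra-/- replicate 1 or Esrra-/- replicate 3. *Slc25a5*, the carrier that dominates here with 1334 FPKM in WT and 1117 FPKM in the knockout, had a log2 fold change of −0.25 (limma adjusted p = 0.759), which was −0.066 without WT replicate 3 and −0.41 without Esrra-/- replicate 3.

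At the outer membrane, beyond the channels, 3 of 19 genes were called lower and none higher, with a median of −0.18 (−0.051 without WT replicate 3, −0.27 without WT replicate 1), where 3.28% of all genes were called lower and 1.35% higher. The groups did not overlap, with the knockout lower, for 9 of the 19 (9.14% of all genes), and, with the knockout higher, for 1 (8.45% of all genes). The latter was *Acsl1*, an acyl-CoA synthetase named here after its values were seen, at 0.57 (unadjusted p = 0.012, limma adjusted p = 0.342), and it passed the fold threshold without WT replicate 3 or Esrra-/- replicate 2 and in the libraries with Y-linked transcripts. The 3 genes called lower were *Mtx2* (metaxin 2, −0.86, limma adjusted p = 0.0826), *Tomm5* (a small subunit of the import pore, −0.80, limma adjusted p = 0.268) and *Samm50* (the core of the machinery that inserts beta barrels such as VDAC, −0.67, limma adjusted p = 0.247). The other genes of protein import and assembly in the list were not called and ran from *Tomm40* (−0.46) to *Tomm70a* (−0.041). Among 8 chaperones of the matrix and cytosol that are known to meet cyclophilin D or its clients, none was called (3.28% and 1.35% of all genes were called lower and higher) and the median was −0.19. The nearest to a call were *Hspe1* (−0.56, limma adjusted p = 0.297) and *Hspa9* (−0.46, limma adjusted p = 0.311), both with non-overlapping groups, and *Hspe1* passed the thresholds without WT replicate 1 (−0.62) and without Esrra-/- replicate 2 (−0.66).

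No gene of the wider BCL-2 family was called with all 6 libraries. Of the 21 genes listed for the BCL-2 family, 13 passed the filter, and 0 of 13 is near the 3.28% of all genes called lower and the 1.35% called higher. A positive value was found for 11 and a negative one for 2, where all genes split into 5754 and 4842, and the median was 0.13 against 0.03 for all genes. That median was −0.017 without WT replicate 1 and 0.25 without Esrra-/- replicate 1. *Bcl2*, 3 copies of *Bcl2a1*, *Bcl2l10*, *Bik*, *Bmf* and *Hrk* were below the filter. The BH3-only gene *Bid*, whose product carries death receptor signals to BAX and BAK1, came nearest to a call, with 5.03 ± 0.641 FPKM in WT and 7.34 ± 1.00 FPKM in the knockout (SD, n = 3 each) and no overlap (0.54, unadjusted p = 0.0101, limma adjusted p = 0.331). It passed the fold threshold without WT replicate 2, Esrra-/- replicate 1 or Esrra-/- replicate 2, with values of 0.61, 0.60 and 0.59. The other BH3-only genes had log2 fold changes of 0.42 for *Bbc3*, 0.39 for *Pmaip1*, 0.13 for *Bcl2l11*, 0.09 for *Bnip3l*, 0.06 for *Bad* and −0.22 for *Bnip3*, none of which passed with all 6 libraries. *Bbc3*, near the filter at 2.03 FPKM in WT, ran from 0.20 (without Esrra-/- replicate 2) to 0.69 with 1 library left out and was called without WT replicate 2. The remaining members were *Bcl2l2*, a restrainer (−0.08), and *Bok*, a pore former (0.02).

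Among 8 tested death factors of the intermembrane space, *Cycs* was the 1 called lower, 7 had negative values and the median was −0.37 (−0.23 without WT replicate 3). The next was *Chchd4*, the oxidoreductase that imports proteins into this space and is itself anchored by AIF, at −0.53 (limma adjusted p = 0.289), named here after its values were seen, and it was called without WT replicate 2 (−0.58) and without Esrra-/- replicate 3 (−0.59). The number called lower in this list was 3 without WT replicate 2 and 4 without Esrra-/- replicate 3. Of 13 genes of the apoptosome, caspases and their inhibitors, 1 was called lower, *Parp1*, a DNA repair enzyme that caspases cleave (−0.66, limma adjusted p = 0.387), and none higher. Over all genes tested 3.28% were called lower, and 1 call in a list of 8 or 13 genes is too few to be read against that share. The call of *Parp1* was lost without WT replicate 2 (−0.53), without Esrra-/- replicate 3 (−0.46), with a pseudocount of 1 and in the libraries with Y-linked transcripts. In the list of 13, 2 genes were called lower without WT replicate 1 or Esrra-/- replicate 2. The executioner caspase *Casp6* (−0.18, and −0.29 to −0.063 with 1 library left out), above 100 FPKM, did not pass.

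Of 11 genes of the death receptor route and 11 of p53 and its death targets, none was called in the fit of all 6 libraries, near the share of all genes (3.28% lower and 1.35% higher). The medians were 0.13 and 0.14, and 0.052 and 0.025 without Esrra-/- replicate 3, and without WT replicate 2 the p53 target *Bbc3* was called higher. In the former *Mlkl*, the executor of necroptosis, had a log2 fold change of 0.55 (unadjusted p = 0.0354, limma adjusted p = 0.425) and non-overlapping groups, with 7.49, 6.57 and 6.80 FPKM in WT and 8.72, 8.45 and 14.3 FPKM in the knockout. It passed the thresholds without Esrra-/- replicate 1 (0.66) or Esrra-/- replicate 2 (0.68), fell to 0.30 without Esrra-/- replicate 3, the highest library, and was 0.29 in the libraries with Y-linked transcripts. *Tnfrsf1a*, the main receptor of tumour necrosis factor, stood at 0.35 (limma adjusted p = 0.518) and at 0.23 without Esrra-/- replicate 3.

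**Figure D5:**
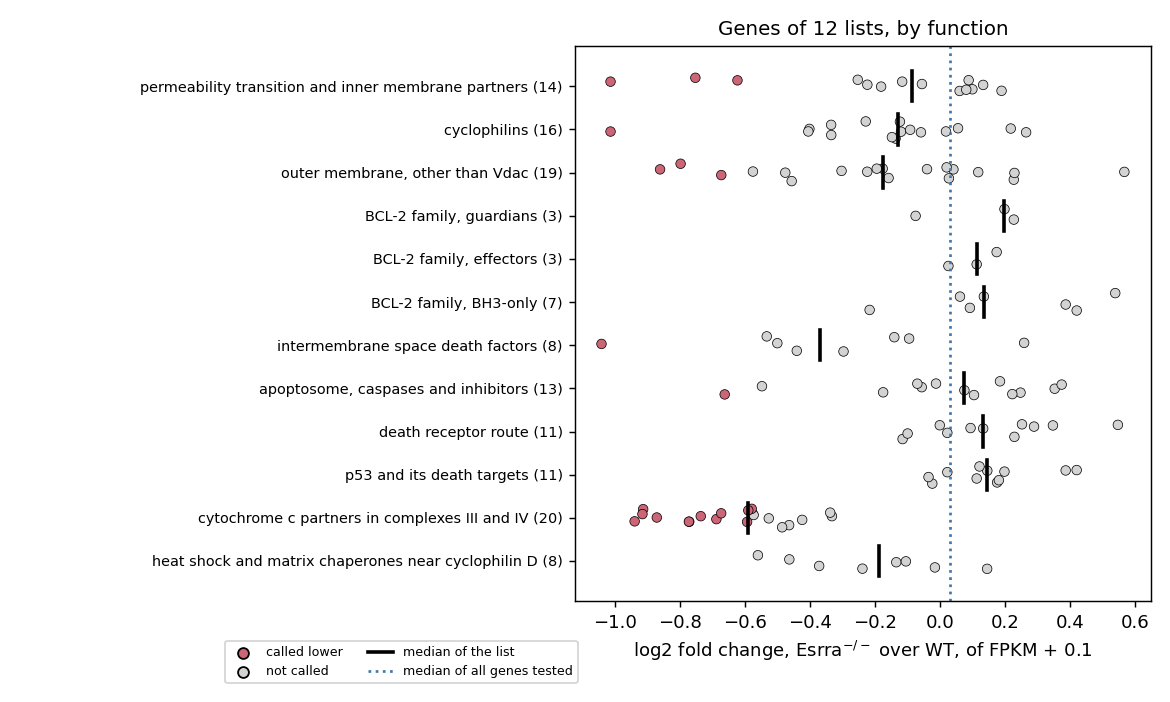
Log2 fold change, Esrra-/- over WT, of each tested gene in 12 lists by function (number tested in brackets), with genes called lower in red, others in grey, the median of each list as a black bar and the median of all genes tested as a dotted line. No gene is called higher in any list, and the list of cytochrome c partners lies furthest to the left, with a median of −0.59.

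The genes whose pattern over the 6 libraries was most like that of *Ppif*, by Pearson's r of log2(FPKM + 0.1) among 10586 genes, were *Timm23* (0.994) and *Timm44* (0.993), both of the inner membrane import machinery, *Ecsit* (0.992), which has a part in complex I assembly, *Mtfp1* (0.992), a mitochondrial fission protein, and *Gm17687* (0.994), which was listed at 0 in all 3 knockout libraries and whose annotated exons span only 69 bases. *Timm23* read 87.5, 81.2 and 90.0 FPKM in WT and 54.0, 55.2 and 52.9 FPKM in the knockout. For *Vdac1* the most alike were *Atp5c1* (0.999) of the ATP synthase, *Mrpl49* (0.998) of the mitochondrial ribosome, *Sdhc* (0.998) of complex II, and *Cox6b1* and *Cox4i1* (0.997 each) of complex IV. *Atp5c1* was highest in replicate 3 of both genotypes, as *Vdac1* was, with 441, 445 and 631 FPKM in WT and 312, 314 and 415 FPKM in the knockout. These r values describe 6 libraries that share the genotype split and carry no test.

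The promoters of *Ppif* and *Cycs*, the 2 of the 10 genes with the deepest falls, and of *Vdac1* are shown because ESRRA binds a defined DNA motif. They are the 250 bases before an annotated start in RefSeq (GRCm38.p6, coordinates on that build and not on mm9), 5′ to 3′ on the strand of the gene, and capitals mark a motif match.
*Ppif*, chr14:25693920-25694169, plus strand: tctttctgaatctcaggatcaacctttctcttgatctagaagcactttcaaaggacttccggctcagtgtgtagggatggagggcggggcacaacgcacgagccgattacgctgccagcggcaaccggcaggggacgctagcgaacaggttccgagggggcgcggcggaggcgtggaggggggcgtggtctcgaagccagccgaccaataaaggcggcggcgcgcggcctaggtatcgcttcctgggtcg
*Cycs*, chr6:50566570-50566819, minus strand: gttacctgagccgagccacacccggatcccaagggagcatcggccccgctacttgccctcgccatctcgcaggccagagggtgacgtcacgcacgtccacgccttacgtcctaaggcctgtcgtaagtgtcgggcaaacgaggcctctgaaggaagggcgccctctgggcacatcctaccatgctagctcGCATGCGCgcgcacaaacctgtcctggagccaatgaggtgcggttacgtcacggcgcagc
*Vdac1*, chr11:52361347-52361596, plus strand: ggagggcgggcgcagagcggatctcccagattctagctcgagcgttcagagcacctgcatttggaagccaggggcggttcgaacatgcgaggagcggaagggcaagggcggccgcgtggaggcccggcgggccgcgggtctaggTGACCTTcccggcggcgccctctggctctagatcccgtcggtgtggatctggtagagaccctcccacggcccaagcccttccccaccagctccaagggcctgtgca

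The letters searched on both strands were TCAAGGTCA, an extended ESRR site, its core AAGGTCA, which lies within it, and GCATGCGC, a core of the site of NRF1, a regulator of respiratory genes that was added after values were seen. RefSeq windows were found for 8 of the 10 genes, 11 windows in all, and *Vdac2* and *Vdac3* had none in the table. The extended site was in 0 of the 11 windows and in 0.387% of all 32851 windows. The core was in 2 of the 11 (4.08% of all windows): in 1 of the 2 windows of *Vdac1*, the one shown above, on the reverse strand 106 bases before the start, and in 1 of the 3 windows of *Bcl2l1*. The NRF1 core was in 3 of the 11 (2.26% of all windows), those of *Cycs* (60 bases before the start), *Bax* (64) and *Aifm1* (44), that is, in 1 gene that fell and in a pair of genes that did not pass the test. The *Ppif* window held none of the 3, and with 62.8% G and C and 25 CpG it was GC-rich beside a median of 52.4% and 6 CpG over all windows. A match is a description of letters and not a site of binding, and no match says only that these letters are absent from this window.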

How the data were processed

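Total RNA of the duodenal epithelium had been sequenced in 6 mice, 3 WT and 3 Esrra-/-, with 1 library per mouse, and groups were taken from the genotype labels. According to the submitters' notes and the methods, the authors checked reads with FastQC 0.11.3, quantified them with kallisto 2.1.0 against mm9 and calculated values and comparisons with DESeq2 2.2.1. The transcript annotation is not given in the sources used here. The FPKM values deposited by the authors, for 22611 genes, were used. Their table of the genotype comparison (mean counts, log2 fold changes, standard errors, test statistics, p-values and adjusted p-values) was not used. FPKM values do not give the number of fragments, so depth is unknown and no counting intervals are given, and precision rests on 3 libraries per group.

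limma 3.58.1 (R 4.3.3; lmFit, eBayes with a mean-variance trend, no covariate) was run on log2(FPKM + 0.1) of the 10596 genes with a mean FPKM above 1, with Benjamini-Hochberg adjustment over all of them. Fold changes on this scale understate those of low genes. A call required both thresholds of the study, 0.05 for the unadjusted p and 0.58 for the size of the log2 fold change. Within-library shares and ratios were compared with exact permutation tests. Their smallest p for 3 against 3 libraries is 0.1, so a larger p is no sign that the groups are alike. The fit was tested on simulated data. The members, gene lists and tests were chosen with earlier results of these data known.

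The genes named were *Esrra*, the 10 members, each called gene of the 12 lists or otherwise the 2 with the smallest p and those above 100 FPKM, all tested cyclophilins and BCL-2 family genes, and the 5 genes most like *Ppif* and *Vdac1*. Those not named are within the counts, and some genes that the rule names are not reported here. *Acsl1*, *Chchd4*, *Gm10053*, *Gm10108*, *Gm10121* and *Gm10123* were chosen after their values were seen. Shared sequence was counted as stretches of 31 bases of GENCODE M1 coding-gene transcripts found elsewhere in NCBIM37 (mm9), and positions are from the same annotation. Promoters are from RefSeq, GRCm38.p6.

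Alternatives were a pseudocount of 1, median-ratio scaling, quantile normalization, no trend, no filter, a minimum of 1 FPKM in each of the 6 libraries, the replicate number as a block, Y-linked transcripts as a covariate, each library left out, and a threshold on the adjusted p. The libraries with Y-linked transcripts alone and the sum of *Cycs* with its copies were added after the data had been seen.

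Summed FPKM of the marker lists not described in the report were 3609 to 5094 for epithelium, 2238 to 2653 for goblet, 257 to 405 for enteroendocrine, 101 to 245 for immune, 6.79 to 44.2 for erythroid and 0 to 0.265 for pancreatic acinar cells, and none of the tested genes of these lists was called.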

Additional observations from a re-analysis of the deposited data

Results flagged for a closer look

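The log2 fold change of *Ppib*, the cyclophilin of the endoplasmic reticulum, was −0.22 in the 4 libraries with Y-linked transcripts and 0.0176 in the 2 without. It was picked out because every knockout library lay on one side of WT among the libraries with Y-linked transcripts and on the opposite side in the pair without. The difference between the kinds of library was not tested, since 1 library per genotype lacks Y-linked transcripts. The cause was not tested.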

How the results depend on the processing

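The count of genes called lower, 348, was 528 with no filter on low values (17679 genes tested), 252 to 533 with 1 library left out, the highest without Esrra-/- replicate 2, and 2 at an adjusted p under 0.05. The 4 genes of either direction with an adjusted p under 0.05 were 52 with the Y-linked covariate, 32 with quantile normalization, 12 without Esrra-/- replicate 2, 1 without WT replicate 1 and 2 to 7 under the other filter, pseudocount, scaling and trend settings. There were 0 with the replicate block, in the libraries with Y-linked transcripts and without WT replicate 2, WT replicate 3, Esrra-/- replicate 1 or Esrra-/- replicate 3, where limma gave 688 to 2285 genes at an unadjusted p under 0.05. That of genes called higher, 143, was 277, 143 to 214 and 2. The 1 gene called lower among the 9 other than *Ppif*, *Cycs*, stayed the number called in every setting but the adjusted p, which left 0. No member was called higher in any setting. Of the ratios, the knockout minus WT difference in the share of *Vdac2* was 1.31 percentage points and ran from −0.17 (without Esrra-/- replicate 1) to 3.82 with 1 library left out. That of *Bax* to *Bcl2l1*, −0.11, ran from −0.36 to 0.18 (0.0058 without WT replicate 2 and 0.18 without Esrra-/- replicate 3), and was 0.14 in the libraries with Y-linked transcripts and 0.052 with group medians. That of *Bak1* to *Mcl1*, −0.02, ran from −0.093 to 0.038 (without WT replicate 1). None of these could have passed 0.05, since 0.1 is the smallest p that the exact permutation test gives for 3 against 3. The cause was not tested.

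Signs of log2 fold changes that turned all belonged to genes that had not been called. With 1 library left out the log2 fold change ran from −0.056 (without WT replicate 1) to 0.26 for *Bax*, from −0.0021 (without Esrra-/- replicate 3) to 0.27 for *Bak1* and from −0.17 (without Esrra-/- replicate 3) to 0.50 for *Bcl2l1*. It ran from −0.27 to 0.36 for *Ppia* (−0.14 without WT replicate 1, −0.16 without WT replicate 2 and −0.042 without Esrra-/- replicate 2), from −0.40 to 0.40 for *Bok* (−0.35 without Esrra-/- replicate 2), from −0.068 to 0.22 for *Bad* (−0.037 without WT replicate 1), from −0.017 to 0.31 for *Bcl2l11*, from −0.058 to 0.64 for *Pmaip1*, from −0.48 to 0.30 for *Bnip3* (0.020 without Esrra-/- replicate 2) and from −0.064 to 0.23 for *Bnip3l*. In the libraries with Y-linked transcripts it was −0.0041 for *Bcl2l11* and 0.15 for *Bnip3*.

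The replicate number as a block gave 441 genes called lower and 192 higher, and 1 lower among the 9 members. The labels do not say that a number marks a pair, and the deviations of same-numbered libraries correlated at 0.012, 0.26 and 0.38, with Esrra-/- replicate 1 not closest to its own number, so the numbers were not taken as pairs.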
